A study of Rattus norvegicus with 18 samples.

Results

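The genes described here are the 129 rows, of 32623 genes in the rat tables, that KEGG places in the pathway of oxidative phosphorylation and not also in that of the lysosome. Of these, 13 lie on the mitochondrial chromosome and 116 on nuclear chromosomes. By role the nuclear members were 44 of complex I, 4 of complex II, 9 of complex III, 19 of complex IV, 16 of complex V, 4 that assemble complex IV or make its haem, 14 of the vacuolar ATPase and 6 others. The lysosome rule left out 9 further genes of the pathway, all of the vacuolar ATPase (Atp6v0a1, Atp6v0a2, Atp6v0a4, Atp6v0c, Atp6v0d1, Atp6v0d2, Atp6v1h, Atp6ap1 and Tcirg1).

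RNA was sequenced from bone marrow mesenchymal stem cells (MSCs) of 2-month-old rats of the SD strain, used at passage 3 after 8 h without serum. KO cells came from miR-337-/- rats and WT cells from wild type rats. In each genotype the cells then received fetal bovine serum (FBS) or a 10% cyclic mechanical stretch (CMS), or stayed without serum (SSt), with 3 libraries in each of the 6 groups. The labels give 24 h for the treatments, while the methods of the study give a shorter time, and neither tells if the 3 libraries stand for separate rats or cultures. The p-values therefore measure the spread between these libraries, which may be technical. The comparison of FBS and CMS with SSt asks what serum and stretch do to starved MSCs. The comparison of genotypes asks what differs between cells of miR-337-/- and wild type rats. Loss of miR-337 cannot be told apart there from other differences between those rats, their cultures or the handling of their libraries.

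Oxidative phosphorylation makes most of the ATP of a resting cell. Complexes I to IV of the inner mitochondrial membrane pass electrons from NADH and succinate to oxygen and pump protons, and complex V (ATP synthase) lets the protons return to make ATP. Complexes I, III, IV and V mix proteins from the mitochondrial genome with proteins from nuclear genes, and complex II is nuclear alone. The vacuolar ATPase is a relative of complex V that runs the other way, spending ATP to acidify endosomes and lysosomes, and KEGG files it in the same pathway. In MSCs, glycolysis carries much of the energy supply while the cells stay undifferentiated, and the demand on oxidative phosphorylation grows with osteogenic differentiation.

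Depth was 56.08 to 71.85 M counts per library. The row for Mir337 had 0 counts in all 18 libraries, so the knockout cannot be checked from these tables. Of the MSC markers, Thy1, Col1a1, Itgb1 and Pdgfra were present in every group, while Lepr stayed under 0.1 FPKM in each group mean. All 10 macrophage markers were detected as well, with a summed level of 4732 to 5497 FPKM in KO FBS, 4556 to 4949 in KO CMS and 2325 to 2431 in KO SSt. In WT the sums were 6768 to 7167 FPKM in FBS, 6519 to 6864 in CMS and 4016 to 4148 in SSt. These sums mostly follow Lyz2, which averaged 3230 FPKM in KO FBS, 3012 in KO CMS and 1517 in KO SSt. In WT Lyz2 averaged 4987 FPKM in FBS, 4841 in CMS and 2299 in SSt. Cd14 ran the other way in WT, at 213 and 164 FPKM with FBS and CMS, against 558 in SSt. Counts of markers by direction are given with the vacuolar ATPase. The 4 markers of dividing cells were highest in the libraries labelled SSt, with sums of 19.7 to 57.2 FPKM in KO FBS, 14.0 to 21.3 in KO CMS and 233 to 263 in KO SSt. In WT these sums were 66.3 to 68.3 FPKM in FBS, 65.1 to 68.6 in CMS and 130 to 138 in SSt. Loss of serum is known to slow division, so these sums go against the labels, on which every direction against SSt given here rests. KO FBS replicate 1 stood apart here, with 19.7 FPKM against 51.1 and 57.2 in the other 2 KO FBS libraries. Fewer cells of a type and less RNA per cell cannot be told apart in bulk RNA.

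Of the 129 members, 113 passed the filter of at least 1 FPKM in 3 libraries of a fit, all 13 mitochondrial ones among them. The 16 that did not were Cox6a2, Cox6b2, Cox7a1, Cox7b2, Cox8b, Cox8c, LOC687508, Ndufs6, a second row named Ndufa10l1, Atp6v1b1, Atp6v1e2, Atp6v1g2, Atp6v1g3 and the gastric and colonic proton pumps Atp4a, Atp4b and Atp12a. Tissue-restricted forms of complex IV make up much of this list (Cox6a2, Cox7a1 and Cox8b are the muscle forms, Cox6b2, Cox7b2 and Cox8c the testis forms). Of these, 5 (Atp4b, Atp12a, Atp6v1g3, Cox7b2 and Cox8c) had a count of 0 in every library, while Cox6a2 came closest to the filter with up to 1.16 FPKM in a library.

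The 13 mitochondrial messages were the largest block of RNA among the members, and their response to CMS differed between the genotypes. In KO-MSCs 6 of the 13 were higher and 1 lower with FBS in edgeR's quasi-likelihood test at an adjusted p under 0.05, against 30.3% higher and 29.5% lower over all 12888 genes tested. With CMS 3 were higher and 4 lower in KO, against 30.8% and 30.7% of all genes. In WT-MSCs 8 were higher with FBS and 9 with CMS, and none was lower at an adjusted or an unadjusted p under 0.05. Over all 12916 genes tested there, 33.7% were higher and 32.7% lower in WT FBS, and 34.6% and 32.3% in WT CMS. The median log2 fold change of the 13 was 0.18 in KO FBS, -0.05 in KO CMS, 0.24 in WT FBS and 0.25 in WT CMS, while the median over all genes tested lay between 0.00 and 0.02.

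Rows of the mitochondrial chromosome took 4.0, 4.30 and 4.04% of all counts in KO FBS and 3.83, 3.71 and 3.65% in KO CMS, against 3.56, 3.77 and 3.89% in KO SSt. They took 4.13, 4.28 and 4.41% in WT FBS and 4.27, 4.32 and 4.54% in WT CMS, against 3.43, 3.61 and 3.59% in WT SSt. FBS libraries lay above SSt libraries in both genotypes, while the KO CMS range fell inside the KO SSt range and WT CMS libraries lay above WT SSt libraries. The mean shares gave ratios of 1.10 for KO FBS over SSt, 0.997 for KO CMS, 1.21 for WT FBS and 1.24 for WT CMS. Nuclear members took 0.768 to 0.847% of counts in the 18 libraries.

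**Figure D1:**
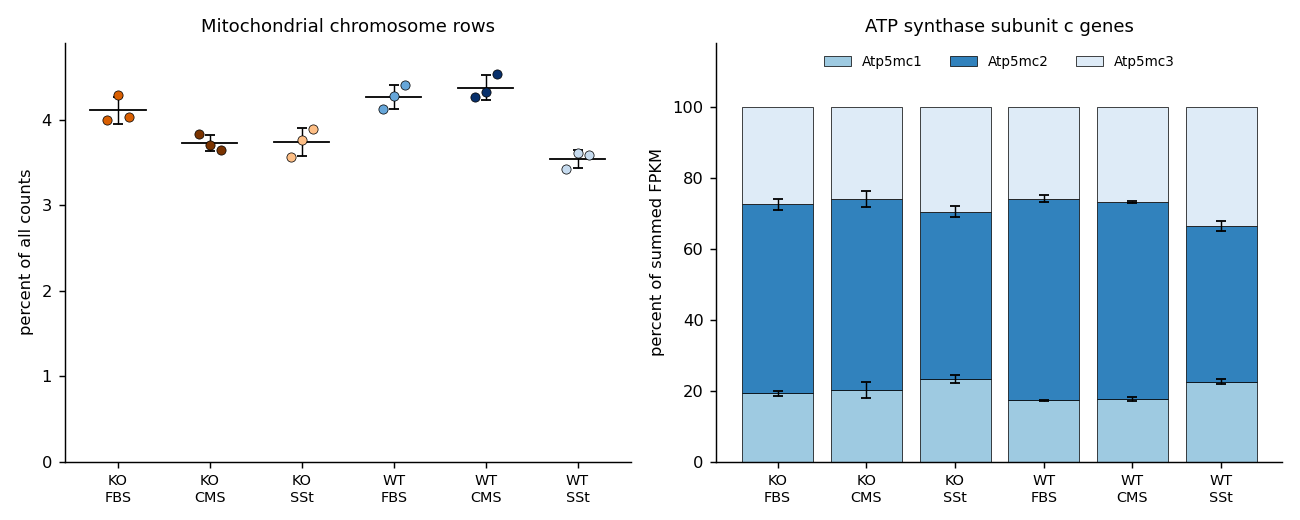
Left, percent of all counts on mitochondrial chromosome rows in each library (points) with the group mean and SD (n = 3). KO CMS overlaps KO SSt, while the 6 WT FBS and WT CMS libraries sit between 4.13 and 4.54%, above the WT SSt libraries at 3.43 to 3.61%. Right, mean share of each of the 3 subunit c genes in their summed FPKM, with the SD at the upper edge of the Atp5mc1 and Atp5mc2 blocks, and the Atp5mc2 block is wider in every FBS and CMS group than in SSt of the same genotype.

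Mammalian mitochondrial genes are read as long transcripts that are then cut into messages, so neighbours share a precursor. In the order of the chromosome the tables give Mt-nd1, Mt-nd2, Mt-co1, Mt-co2, Mt-atp8, Mt-atp6, Mt-co3, Mt-nd3, Mt-nd4l, Mt-nd4, Mt-nd5, Mt-nd6 and Mt-cyb, with Mt-nd6 alone on the other strand. The 4 genes from Mt-co2 to Mt-co3 had the highest fold changes in WT. Mt-atp8, a small subunit of complex V, had 3352, 2576 and 2749.6 FPKM in KO CMS and 3512, 3873 and 3468 in KO FBS, against 2891, 2962 and 3264 in KO SSt. KO CMS overlapped KO SSt (0.04, adjusted p = 0.747), and the KO FBS difference of 0.31 (adjusted p = 0.0192) missed the threshold without KO FBS replicate 2 (0.27), KO SSt replicate 1 (0.27) or KO SSt replicate 2 (0.28). In WT the same gene had 4277, 4187 and 4303 FPKM in CMS and 3463, 3571 and 3642 in FBS, against 2115, 2468 and 2352 in SSt. Neither treated group of WT overlapped SSt (log2 fold change 0.85, SE 0.05, adjusted p = 1.81e-07 with CMS, and log2 fold change 0.59, SE 0.05, adjusted p = 3.01e-06 with FBS). The KO response to CMS was lower than the WT response by a log2 difference of -0.81 (SE 0.11, adjusted p = 4.45e-05 for the interaction). Mt-atp8 and Mt-atp6 overlap by 43 bases in the tables and come as 1 message, so their counts are not fully separate.

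Mt-co3, a core subunit of complex IV, measured 5044, 4975 and 4981 FPKM in KO CMS, 5430.4, 5924 and 5467 in KO FBS and 4506, 4692 and 4758 in KO SSt. The groups did not overlap, at log2 fold changes of 0.21 with CMS (adjusted p = 0.00434) and 0.33 with FBS (adjusted p = 0.000416), and the CMS call was lost under total-count scaling (0.10). In WT it measured 6356, 6518 and 6645 FPKM in CMS, 5998, 6112 and 5881 in FBS and 4043, 4119.6 and 4170.4 in SSt. The WT groups did not overlap either, and the steps were larger, 0.64 with CMS (SE 0.02, adjusted p = 7.25e-09) and 0.51 with FBS (adjusted p = 3.65e-08). Mt-co2 stood at 0.06 in KO CMS (adjusted p = 0.475). Mt-atp6 stood at 0.20 there (adjusted p = 0.0248), a call lost without KO CMS replicate 1 (0.16), KO SSt replicate 1 (0.16) or KO SSt replicate 2 (0.19). Both rose in KO FBS (0.27 and 0.33), and in WT they rose by 0.60 and 0.64 with CMS and by 0.51 and 0.64 with FBS.

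Mt-co1, the catalytic subunit of complex IV and the most abundant member of all, was 1 of the 4 whose CMS response did not pass the test between genotypes (Mt-nd4, Mt-nd5 and Mt-nd6 were the others). It had 10700.5, 11096 and 10829 FPKM in KO FBS and 10840.0, 10438 and 10268 in KO CMS, against 8852, 9363 and 9396 in KO SSt. WT cells had 10527, 11001 and 11469 FPKM in FBS and 11266, 11444 and 12046 in CMS, against 9537, 9828 and 9809 in SSt. It rose in all of these comparisons with SSt, by 0.30, 0.30, 0.14 and 0.23 in the order just given, and its response to CMS did not differ between genotypes past the threshold (0.08, adjusted p = 0.233). The response to FBS was larger in KO by 0.17 (adjusted p = 0.018), a call lost without WT FBS replicate 1 (0.14) and under total-count scaling (0.06).

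Some messages of complex I fell in KO CMS. Mt-nd3, a membrane subunit, had 751, 669 and 595 FPKM in KO CMS and 943, 1054 and 1004 in KO FBS, against 1004, 1114 and 1222 in KO SSt. The 3 KO CMS libraries were below every KO SSt library (log2 fold change -0.62, SE 0.09, adjusted p = 0.000333), and KO FBS overlapped SSt (adjusted p = 0.391). In WT it had 784, 933 and 979 FPKM in CMS and 839, 834 and 905 in FBS, against 698, 703 and 632 in SSt, and both treated groups were higher (0.38 and 0.31). The genotypes therefore moved in opposite directions with CMS, with a difference of -1.0 (SE 0.13, adjusted p = 2.16e-05). Mt-nd3 also started higher in KO SSt than in WT SSt (log2 fold change 0.64, SE 0.09, adjusted p = 4.45e-05).

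Its neighbours Mt-nd4l and Mt-nd4, also membrane subunits of complex I, had KO CMS log2 fold changes of -0.39 (adjusted p = 0.00123) and -0.45 (adjusted p = 0.0398). Mt-nd4 scattered within groups, with 875, 1238 and 894 FPKM in KO CMS and 1159, 1561 and 1715 in KO SSt, and these ranges overlapped. Its call was lost without KO CMS replicate 1 (-0.35), KO CMS replicate 3 (-0.38), KO SSt replicate 2 (-0.42) or KO SSt replicate 3 (-0.34). Mt-cyb, cytochrome b of complex III, fell in KO FBS (-0.19, adjusted p = 0.012) and KO CMS (-0.24, adjusted p = 0.00378) and stood at 0.02 and -0.07 in WT FBS and WT CMS. Mt-nd1 and Mt-nd2, at the other end, stood at -0.05 and 0.14 in KO CMS (adjusted p = 0.492 and 0.0872). KO FBS gave 0.08 for Mt-nd1 (adjusted p = 0.248) and 0.21 for Mt-nd2 (adjusted p = 0.019), and the Mt-nd2 call was lost without KO FBS replicate 2 (0.17), KO SSt replicate 1 (0.17) or KO SSt replicate 2 (0.20). In WT they rose by 0.25 and 0.44 with CMS and by 0.24 and 0.38 with FBS. Mt-nd5 did not pass in any comparison with SSt (largest size -0.14 in KO CMS). Mt-nd6, from the opposite strand, rose in WT CMS (0.20, adjusted p = 0.00893) and stood at 0.12 in WT FBS (adjusted p = 0.0814), where DESeq2 and limma called it.

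**Figure D2:**
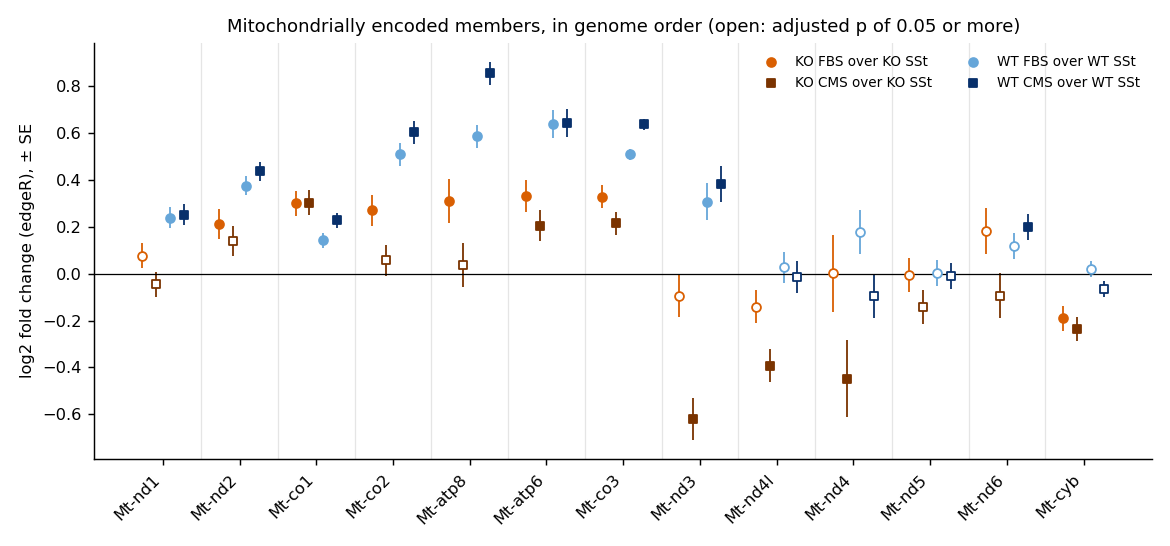
Log2 fold change over SSt from edgeR (y axis, ± SE) of the 13 mitochondrially encoded members in chromosome order, for KO FBS, KO CMS, WT FBS and WT CMS (filled points pass an adjusted p of 0.05). KO CMS falls to -0.62 at Mt-nd3, and the WT points peak between Mt-co2 and Mt-co3 at 0.51 to 0.85.

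Tested as the difference of responses, KO minus WT, 9 of the 13 were lower and 0 higher with CMS, and 5 were lower and 1 higher with FBS. Over all 13317 genes in that fit, 23.2% were lower and 21.6% higher with CMS, and 17.2% and 18.5% with FBS. The FBS count fell to 3 without KO SSt replicate 3 or WT FBS replicate 3. In levels, KO CMS lay below WT CMS for 8 of the 13 (background 21% lower and 18.7% higher). KO SSt differed from WT SSt for 5, with 4 higher and 1 lower (background 24.2% and 23.2%). Between KO FBS and WT FBS none of the 13 passed in edgeR (background 13.5% higher and 12.3% lower), and DESeq2 called 3. At an unadjusted p under 0.05, a limit for which no background is given here, 4 of the 13 differed. Scaling by total counts alone moved the median of all genes by more than 0.1 in 3 comparisons, to -0.11 in KO CMS, -0.12 in the FBS response difference and -0.19 in the CMS response difference, and fold changes in these are best read against that shift. Under it 11 of the 13 were lower in the CMS response difference.

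Nuclear subunits of complexes I to V leaned to small decreases with FBS and CMS, and few were called higher. Of 83 tested, 27 were lower and 4 higher in KO FBS, 30 lower and 4 higher in KO CMS, 39 lower and 6 higher in WT FBS, and 37 lower and 7 higher in WT CMS. In KO FBS that is 32.5% lower and 4.82% higher, against 29.5% and 30.3% of all genes. KO CMS gave 36.1% and 4.82%, against 30.7% and 30.8%. WT FBS gave 47.0% and 7.23%, against 32.7% and 33.7%, and WT CMS 44.6% and 8.43%, against 32.3% and 34.6%. In KO the lower share was thus near that of all genes, while the higher share was well under it. The median log2 fold change was -0.04, -0.08, -0.13 and -0.13 in these 4 comparisons. Cox4i2 alone of these subunits moved by more than 2-fold against SSt. The dividing-cell markers were lower in the same FBS and CMS libraries, 4 of 4 in each comparison, and their part in these decreases was not tested.

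**Figure D3:**
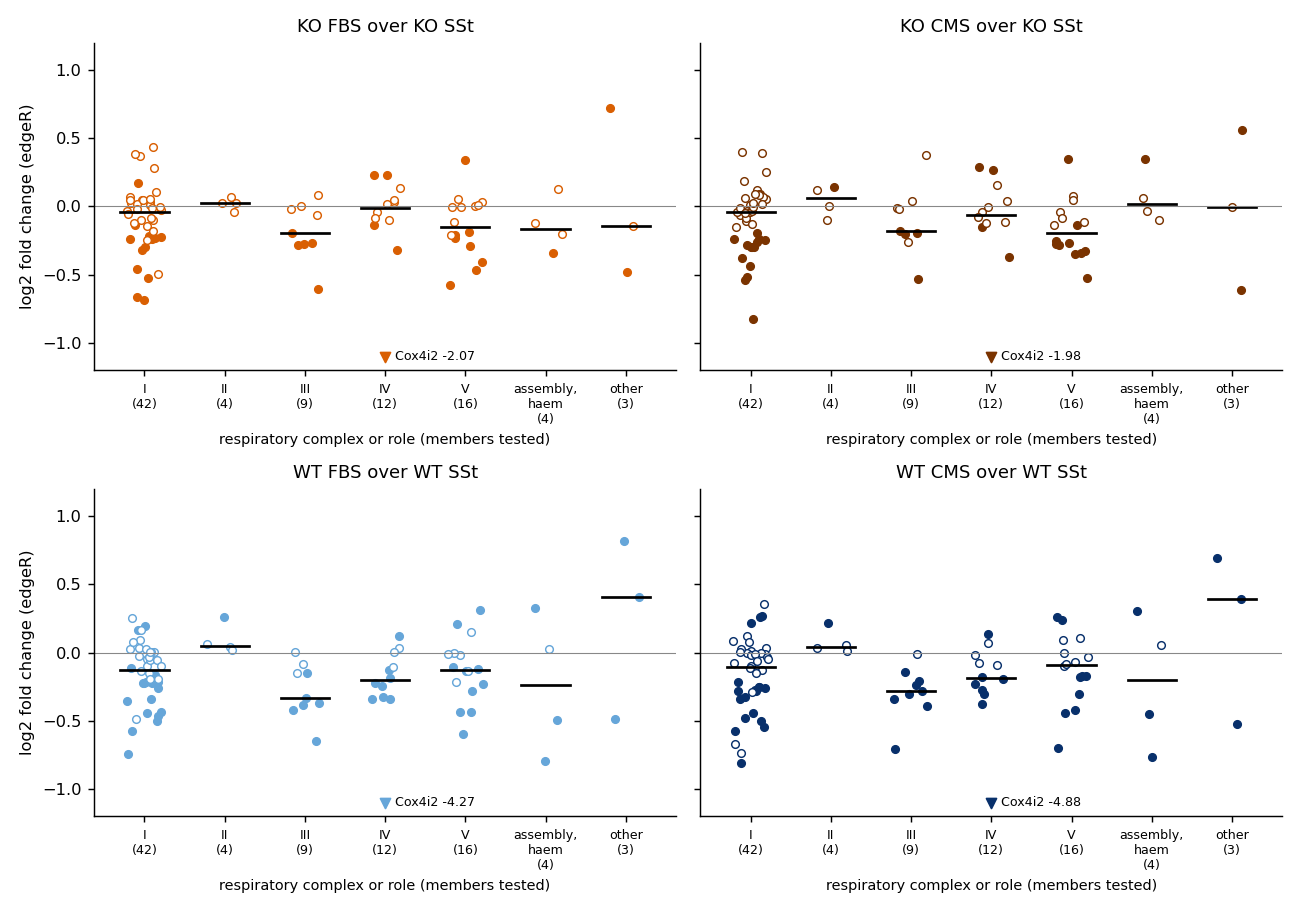
Log2 fold change over SSt (y axis) of every tested nuclear member outside the vacuolar ATPase, by complex or role (x axis, number tested in brackets), in 4 panels for KO FBS, KO CMS, WT FBS and WT CMS. Filled points pass an adjusted p of 0.05, black bars are medians, and the triangle marks Cox4i2, which lies below the axis at -2.07, -1.98, -4.27 and -4.88.

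Complex I, which takes electrons from NADH, had 42 tested nuclear members, counted by gene name. In KO 12 were lower with FBS and 14 with CMS, 28.6% and 33.3% against 29.5% and 30.7% of all genes. In WT 17 and 15 were lower, 40.5% and 35.7% against 32.7% and 32.3%. The KO shares and that of WT CMS thus lay near those of all genes. Higher were 1 and 0 in KO and 2 and 3 in WT, all under the all-gene shares of 30.3%, 30.8%, 33.7% and 34.6%. These counts hold Ndufa4, described with complex IV, which was lower in each comparison, and its relative Ndufa4l2, lower in WT FBS and WT CMS. Ndufab1, the mitochondrial acyl carrier protein, had 7.16, 8.51 and 8.11 FPKM in KO FBS and 8.37, 8.24 and 8.45 in KO CMS, against 13.6, 12.2 and 13.4 in KO SSt. WT-MSCs had 7.11, 7.62 and 6.55 FPKM in FBS and 8.41, 8.09 and 7.22 in CMS, against 12.1, 11.5 and 11.1 in SSt. No treated group overlapped its SSt group, and the log2 fold changes were -0.66, -0.54, -0.74 and -0.57.

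Ndufa12, an accessory subunit near the electron input arm, fell further in KO. It had 22.9, 22.6 and 22 FPKM in KO CMS and 20.9, 29.7 and 26.7 in KO FBS, against 42.1, 43.5 and 43.6 in KO SSt (log2 fold change -0.83, SE 0.10, adjusted p = 0.000104 with CMS). WT held 26.6, 28.8 and 26.6 FPKM in CMS and 26.4, 27.6 and 27.7 in FBS, against 33.5, 34.9 and 33.6 in SSt (-0.34 and -0.36). The CMS response differed between genotypes by -0.48 (SE 0.11, adjusted p = 0.0024). Among the few subunits that were higher, Ndufv3, a small subunit of the NADH-binding module, stood at 0.07 with FBS and 0.12 with CMS in KO and rose by 0.19 and 0.27 in WT. Ndufa13 was the most abundant nuclear member of complex I by mean FPKM over all libraries. In SSt alone Ndufa11 was higher, at 130.1 FPKM in KO and in WT, against 108.8 and 98.0 for Ndufa13. Ndufa13 measured 125, 109.9 and 119 FPKM in KO FBS and 110.1, 108 and 109 in KO SSt. These overlapped, and its KO FBS value of 0.18 (adjusted p = 0.0425) missed the threshold without any 1 of KO FBS replicates 1 and 3 (0.11 and 0.18) and KO SSt replicates 1 to 3 (0.15 to 0.18).

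Several complex I rows may share reads with near-identical copies. Ndufs6 itself held at most 0.724 FPKM, while its copies LOC100912599 and LOC679739 held 13.2 to 41.1 and 2.93 to 36.7 FPKM across libraries. In KO FBS replicate 2 the copies held 13.2 and 36.7 FPKM, and in WT CMS replicate 1 they held 41.1 and 2.93, while their sum stayed between 42.4 and 51.6 FPKM in all 18 libraries. The rows Ndufa1 with LOC108348144, Ndufa3 with LOC684509 and, in complex V, Atp5pb with LOC100911417 are uncertain too, as are the names that stand on more than 1 row (Ndufv3, Ndufa10l1, Cox6b1 and Uqcrb). Summed FPKM of these 3 pairs ran from 21.6 to 94.45 for Ndufa1, from 51.35 to 80.61 for Ndufa3 and from 54.18 to 66.15 for Atp5pb, so the first was not steady in sum.

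Complex II, which oxidises succinate, had 4 members, of which only Sdhc passed against SSt. Its membrane anchor Sdhc had 70.1, 78.1 and 76.7 FPKM in KO FBS and 73.5, 76.8 and 78.2 in KO CMS, against 74.3, 73.5 and 75.6 in KO SSt. These ranges overlapped, and the KO CMS value of 0.14 (adjusted p = 0.0288) missed the threshold without KO CMS replicate 2 or 3 (0.14 and 0.12) or any KO SSt replicate (0.12 to 0.14). WT libraries had 80.7, 88.6 and 81.9 FPKM in FBS and 79.2, 82 and 81.4 in CMS, against 68.3, 68.9 and 67.7 in SSt. Both WT groups were higher than SSt without overlap (0.26, adjusted p = 0.000213, and 0.22, adjusted p = 0.000675).

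Complex III, which hands electrons to cytochrome c, had the lowest median of the complexes in WT FBS (-0.33). Of 9 members 5 were lower in KO FBS, 4 in KO CMS, 6 in WT FBS and 8 in WT CMS. None was higher at an adjusted or unadjusted p under 0.05. The lower shares were 55.6%, 44.4%, 66.7% and 88.9%, against 29.5%, 30.7%, 32.7% and 32.3% of all genes. At the adjusted threshold 30.3%, 30.8%, 33.7% and 34.6% of all genes were higher. Cyc1, cytochrome c1, had 50.2, 56.6 and 50.6 FPKM in KO FBS and 50.7, 53.9 and 55.4 in KO CMS, against 84.8, 79.1 and 85.4 in KO SSt. In WT it had 50.8, 54 and 51.7 FPKM in FBS and 49.1, 51.8 and 47.9 in CMS, against 79.2, 80.2 and 79.5 in SSt. All treated libraries were below all SSt libraries, at log2 fold changes of -0.60, -0.53, -0.65 and -0.71 (adjusted p = 5.53e-05, 0.000101, 1.97e-07 and 9.74e-08). Uqcrh, the hinge protein that helps bind cytochrome c and the most abundant nuclear member of the complex, stood at -0.02 with FBS and -0.01 with CMS in KO (adjusted p = 0.812 and 0.874). In WT it fell (-0.38 and -0.39), and the responses differed by 0.38 with FBS and 0.38 with CMS (adjusted p = 0.00399 and 0.00245). The genotypes were apart in SSt, at means of 156.5 FPKM in KO and 198.5 in WT (-0.42, adjusted p = 6.82e-05). Treated levels did not differ past the threshold (-0.04 with FBS, adjusted p = 0.696, and -0.03 with CMS, adjusted p = 0.712).

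Complex IV, cytochrome c oxidase, held the largest change of any member. Its subunit 4 comes as Cox4i1, the general form, or Cox4i2, a form known from lung and from cells at low oxygen. Cox4i2 had 5.10, 2.33 and 2.28 FPKM in KO FBS and 4.53, 2.51 and 3.04 in KO CMS, against 18.8, 13.2 and 10.9 in KO SSt. In WT it had 0.946, 1.35 and 1.20 FPKM in FBS and 1.10, 0.566 and 0.611 in CMS, against 24, 20.9 and 21.8 in SSt. The treated groups lay far below SSt in both genotypes, in KO by less (log2 fold change -2.07, SE 0.39, adjusted p = 0.00155 in KO FBS, and log2 fold change -1.98, SE 0.38, adjusted p = 0.00182 in KO CMS). In WT the fall was larger (log2 fold change -4.27, SE 0.24, adjusted p = 1.65e-07 in FBS, and log2 fold change -4.88, SE 0.25, adjusted p = 8.18e-08 in CMS). The genotype difference was 2.22 for FBS (SE 0.48, adjusted p = 0.00221) and 2.90 for CMS (SE 0.48, adjusted p = 0.000189). Cox4i2 was higher in KO than in WT with FBS (1.51, adjusted p = 0.00508) and with CMS (2.19, adjusted p = 0.000206), and KO SSt stood below WT SSt without passing (-0.71, adjusted p = 0.0857). The FBS level difference missed the threshold in a fit of the 6 FBS libraries alone (1.51).

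Cox4i1 had 369, 390.2 and 378 FPKM in KO FBS and 377, 375 and 375 in KO CMS, against 337, 340.0 and 334 in KO SSt. It rose a little in both (0.23 and 0.27, adjusted p = 0.000456 and 0.000169). Cox4i1 in WT had 383, 384 and 354 FPKM in FBS and 357, 384 and 382 in CMS, against 335, 342 and 328 in SSt. The WT values of 0.12 and 0.13 passed too, but not without WT SSt replicate 1 (0.11 and 0.12) or 3 (0.10 and 0.11), nor, for FBS, without WT FBS replicate 1 (0.10) or 2 (0.10), nor, for CMS, without WT CMS replicate 2 (0.12). Of the FPKM summed over both forms, Cox4i2 made up 0.851% ± 0.443 in KO FBS and 0.886% ± 0.272 in KO CMS, against 4.06% ± 1.09 in KO SSt (mean ± SD, n = 3). In WT it made up 0.312% ± 0.0569 with FBS and 0.205% ± 0.0894 with CMS, against 6.22% ± 0.459 in SSt. Cox4i2 was thus the minor form in every group.

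Ndufa4, named after complex I and now placed in complex IV, has a relative induced at low oxygen, Ndufa4l2. Ndufa4l2 had 24.1, 20.7 and 20.2 FPKM in KO SSt, against 8.30, 7.39 and 8.04 in WT SSt (log2 fold change 1.38, SE 0.19, adjusted p = 3.72e-05). With CMS it had 24.2, 17.4 and 21.6 FPKM in KO and 3.92, 4.77 and 5.10 in WT (log2 fold change 2.26, SE 0.20, adjusted p = 7.77e-07), and with FBS 28.8, 17.3 and 18 in KO and 4.84, 6.63 and 5.74 in WT (log2 fold change 1.94, SE 0.20, adjusted p = 5.12e-06). Every KO library was above every WT library. It was the only member more than 2-fold apart between genotypes in SSt. Against SSt it stood at 0.07 in KO CMS (adjusted p = 0.795) but fell in WT CMS (-0.81, adjusted p = 0.000916), and these responses differed by 0.88 (adjusted p = 0.0154). The WT FBS value of -0.50 (adjusted p = 0.0144) missed the threshold without WT FBS replicate 1 (-0.39). Its share of the pair's summed FPKM was 22.4% ± 6.50 in KO FBS, 23.6% ± 2.62 in KO CMS and 19.3% ± 0.888 in KO SSt, and 7.65% ± 1.24, 6.39% ± 0.441 and 9.12% ± 0.596 in the same groups of WT. KO FBS replicate 1, at 28.8 FPKM, held the highest value of all libraries.

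Of the 12 tested subunits of complex IV, Cox4i2 included, 3 were lower in KO FBS, 3 in KO CMS, 8 in WT FBS and 7 in WT CMS. The KO shares were 25% and 25%, against 29.5% and 30.7% of all genes. In WT they were 66.7% and 58.3%, against 32.7% and 32.3%. Cox7b, a small structural subunit, fell in each (-0.32, -0.37, -0.34 and -0.30). Cox7a2l, which joins complexes III and IV into supercomplexes, rose in KO (0.23 with FBS, lost without KO SSt replicate 2 at 0.17, and 0.29 with CMS) and stood at 0.04 and 0.07 in WT. Cox8a, the general form of subunit 8, stood at 0.05 with FBS and -0.08 with CMS in KO and fell in WT (-0.24 and -0.28). KO SSt lay below WT SSt for Cox8a (-0.20, adjusted p = 0.00496), a call lost under total-count scaling. Its treated levels did not differ between genotypes past the threshold (adjusted p = 0.18 with FBS and 0.993 with CMS). Cox6a1, one of the most abundant nuclear members, fell in WT FBS (-0.13), a call lost without WT FBS replicate 3 (-0.09), WT SSt replicate 1 (-0.11) or WT SSt replicate 2 (-0.12). Cox6b1 did not pass against SSt in any group.

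**Figure D4:**
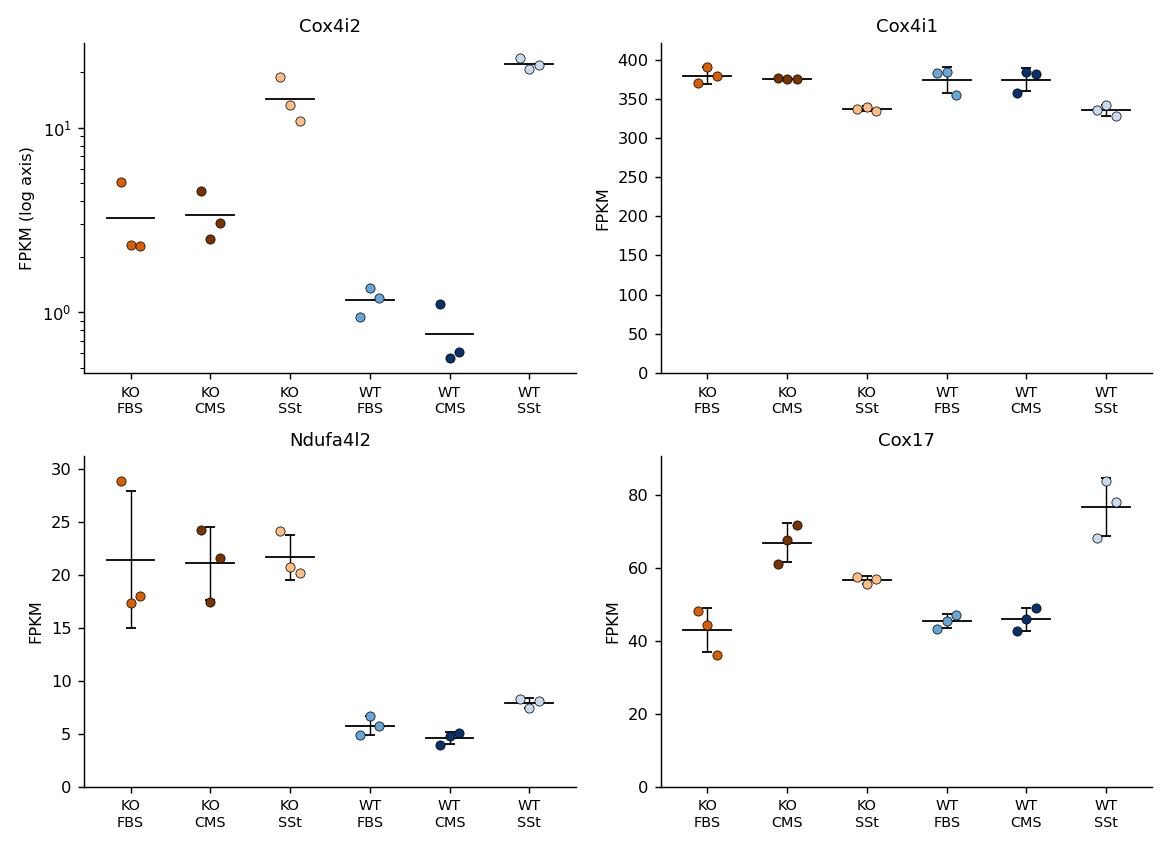
FPKM in each library (points) with the group mean (bar) and, outside the log panel, the SD (n = 3), for Cox4i2 (log axis), Cox4i1, Ndufa4l2 and Cox17 in the 6 groups. Cox4i2 runs from 0.566 to 1.35 in WT CMS and WT FBS and from 20.9 to 24 in WT SSt, Ndufa4l2 is at 17.3 or more in every KO library and at 8.30 or less in every WT library, and Cox17 is above SSt with CMS in KO and below it in WT.

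Complex V, the ATP synthase, had 16 tested members, of which 7 were lower in KO FBS, 9 in KO CMS, 8 in WT FBS and 7 in WT CMS. The shares were 43.75%, 56.25%, 50% and 43.75%, against 29.5%, 30.7%, 32.7% and 32.3% of all genes. Atp5f1d, the delta subunit of the rotor, had 38, 40.1 and 41.1 FPKM in KO FBS and 39.8, 39.8 and 39.7 in KO CMS, against 62.7, 60.8 and 61.4 in KO SSt. WT-MSCs held 40.3, 41.5 and 38.4 FPKM in FBS and 35.2, 38.2 and 37.3 in CMS, against 60.4, 58.3 and 58.1 in SSt. Libraries within a group agreed closely, and the log2 fold changes were -0.58, -0.52, -0.59 and -0.70. Atp5f1b, the catalytic beta subunit and the most abundant nuclear gene of the complex, fell by smaller steps (-0.40 and -0.35 in KO, -0.28 and -0.30 in WT). Atp5f1e, the epsilon subunit that sits beside delta on the rotor, rose (0.34 and 0.35 in KO, 0.21 and 0.26 in WT, the WT FBS call lost without WT SSt replicate 1 at 0.14).

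The rotor ring is built of subunit c, for which 3 genes encode the same mature protein. Atp5mc1 and Atp5mc3 fell in KO, by -0.47 and -0.29 with FBS and by -0.34 and -0.33 with CMS (Atp5mc1 with CMS not without KO SSt replicate 1, -0.31), while Atp5mc2 stood at -0.01 and 0.05. In WT they fell as well, by -0.44 and -0.43 with FBS and by -0.44 and -0.42 with CMS. Atp5mc2 rose in WT, with 233, 252 and 229.9 FPKM in FBS and 209, 233 and 234 in CMS, against 191, 184 and 187 in SSt (log2 fold change 0.31, SE 0.05, adjusted p = 0.000368 with FBS, and log2 fold change 0.24, SE 0.05, adjusted p = 0.00205 with CMS). Atp5mc2 made up 53.2% ± 1.59 of the summed FPKM of the 3 genes in KO FBS and 53.7% ± 2.26 in KO CMS, against 47.1% ± 1.58 in KO SSt. In WT the share was 56.8% ± 0.950 with FBS and 55.4% ± 0.363 with CMS, against 43.9% ± 1.49 in SSt. The share was higher with FBS and CMS than in SSt in both genotypes.

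Since these 3 genes give the same protein and moved apart, their start regions are shown. Each line is a RefSeq window of 300 bases (build GRCr8, 250 before and 50 after the annotated start, read along the gene), with capitals for 3 motifs searched on both strands: CACGTG (the E-box), GCATGCGC (the core of sites of the factor NRF1) and CCGGAAG (an ETS-type site). They lie at chr10:81523296-81523595 (minus strand, Atp5mc1), chr7:135678169-135678468 (minus, Atp5mc2) and chr3:79220615-79220914 (minus, Atp5mc3).
Atp5mc1: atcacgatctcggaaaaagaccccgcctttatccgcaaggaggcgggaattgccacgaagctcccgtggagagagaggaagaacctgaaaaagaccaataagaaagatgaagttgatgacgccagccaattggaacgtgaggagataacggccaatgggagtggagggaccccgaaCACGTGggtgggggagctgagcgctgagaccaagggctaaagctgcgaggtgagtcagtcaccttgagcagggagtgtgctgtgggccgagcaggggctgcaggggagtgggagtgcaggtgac
Atp5mc2: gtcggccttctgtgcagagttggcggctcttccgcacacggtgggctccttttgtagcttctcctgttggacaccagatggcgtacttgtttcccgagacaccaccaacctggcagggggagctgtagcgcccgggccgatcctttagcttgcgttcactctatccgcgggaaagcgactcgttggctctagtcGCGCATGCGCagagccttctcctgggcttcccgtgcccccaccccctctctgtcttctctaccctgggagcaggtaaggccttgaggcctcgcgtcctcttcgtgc
Atp5mc3: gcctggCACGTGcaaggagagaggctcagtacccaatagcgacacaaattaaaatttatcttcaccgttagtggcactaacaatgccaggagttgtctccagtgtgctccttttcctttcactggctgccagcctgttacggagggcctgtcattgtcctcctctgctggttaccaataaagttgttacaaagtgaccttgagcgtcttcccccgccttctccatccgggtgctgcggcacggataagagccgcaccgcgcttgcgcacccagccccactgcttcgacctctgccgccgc
The windows of Atp5mc1 and Atp5mc3, the genes that fell, hold CACGTG and no other of these motifs. The window of Atp5mc2 holds GCATGCGC, matched on both strands at 1 overlapping place, and no CACGTG. Of all 33469 windows 6.42% hold CACGTG, 2.47% GCATGCGC and 8.75% CCGGAAG. Windows were found for 94 of the 129 members, and of the 73 windows of nuclear complex I to V subunits 6 hold CACGTG, 9 GCATGCGC and 19 CCGGAAG. Of the 14 windows of complex V alone, the 3 shown among them, 4 hold CACGTG, 4 GCATGCGC and 4 CCGGAAG. The 3 genes were picked because they moved apart, and a link of motif and direction was not tested. These are matches of letters and say nothing of what binds there.

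Of the 4 assembly and haem members, Cox17, the chaperone that brings copper to complex IV, differed most between genotypes. It had 61.2, 67.7 and 71.8 FPKM in KO CMS and 48.1, 44.4 and 36.2 in KO FBS, against 57.5, 55.6 and 57 in KO SSt. WT cells held 42.8, 45.9 and 49 FPKM in CMS and 43.4, 45.5 and 47.2 in FBS, against 68.3, 83.9 and 78.1 in SSt. In KO CMS it was higher than in SSt (0.35, adjusted p = 0.0261), though the groups are close and the call was lost without KO CMS replicate 2 or 3 (0.34 and 0.29) or any KO SSt replicate (0.32 to 0.35). The KO FBS value of -0.34 (adjusted p = 0.0298) was likewise lost without KO FBS replicate 2 (-0.35) or 3 (-0.22) or any KO SSt replicate (-0.37 to -0.34). It fell in WT with both (log2 fold change -0.77, SE 0.08, adjusted p = 1.61e-05 with CMS, and -0.79 with FBS). The difference between genotypes in the CMS response, 1.12 (SE 0.15, adjusted p = 2.2e-05), passed in every alternative run. CMS and FBS also differed in KO (0.69, adjusted p = 0.00643). Cox15, which makes haem A for complex IV, stood at 0.13 with FBS and 0.07 with CMS in KO and rose in WT (0.33 and 0.30).

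The vacuolar ATPase members mostly rose, and they gave more of the higher calls than any other role among the nuclear members. Of 10 tested, 9 were higher and none lower in KO FBS and in KO CMS, and 9 were higher and 1 lower in WT FBS and in WT CMS. That is 90% higher in each comparison, against 30.3% to 34.6% of all genes. The median log2 fold change was 0.72 in KO FBS, 1.0 in KO CMS, 0.44 in WT FBS and 0.59 in WT CMS. Atp6v1b2, a subunit of the ATP-binding head, had 204, 233 and 221 FPKM in KO CMS and 164, 196 and 187 in KO FBS, against 64, 65.8 and 64.8 in KO SSt (log2 fold change 1.87, SE 0.07, adjusted p = 1.41e-07 with CMS). WT had 224, 231 and 226 FPKM in CMS and 202, 223 and 211 in FBS, against 93.5, 94.8 and 90.6 in SSt (log2 fold change 1.26, SE 0.04, adjusted p = 1.26e-09 with CMS). The FBS values were 1.55 in KO and 1.16 in WT.

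Atp6v1a, its catalytic partner in the head, followed, with 117, 111 and 112 FPKM in KO CMS and 81.5, 88.3 and 84.2 in KO FBS, against 39.3, 41.7 and 41.7 in KO SSt. In WT it had 117, 113 and 116 FPKM in CMS and 100.1, 104 and 102 in FBS, against 52.5, 53.8 and 49.8 in SSt. CMS exceeded FBS in both genotypes (0.47 in KO, adjusted p = 0.000492, and 0.18 in WT, adjusted p = 0.00918). Atp6v1e1, of the outer stalks, showed the widest gap between genotypes in the CMS response, with 189.6, 219 and 227 FPKM in KO CMS, 159, 121 and 114 in KO FBS and 88.9, 85.8 and 84.4 in KO SSt. WT held 157, 161 and 154 FPKM in CMS, 139, 149 and 144 in FBS and 119, 124 and 118 in SSt. It rose by 1.40 in KO CMS and 0.36 in WT CMS, a difference of 1.05 (SE 0.15, adjusted p = 4.04e-05).

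Atp6v1c1 and Atp6v1g1, also of the stalk region, rose by 1.04 and 0.97 in KO CMS and 0.61 and 0.57 in WT CMS. With FBS the rises were 0.72 and 0.74 in KO and 0.48 and 0.30 in WT. Atp6v1c2, a second form of subunit C, stayed under 2 FPKM in every library. The small membrane subunit e comes from Atp6v0e1 and Atp6v0e2, and these parted. Atp6v0e2 had 14.8, 15.2 and 22 FPKM in KO FBS and 14.4, 18.6 and 16.8 in KO CMS, against 5.81, 7.32 and 6.53 in KO SSt. In WT it had 17.4, 15.6 and 17.6 FPKM in FBS and 15.1, 16.6 and 17.4 in CMS, against 6.59, 5.04 and 6.07 in SSt, and its rises were near equal in the 4 comparisons (1.46, 1.46, 1.48 and 1.45).

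Atp6v0e1 had 42.9, 41.5 and 38.7 FPKM in KO FBS and 44.3, 46.4 and 50.6 in KO CMS, against 43.5, 39.9 and 40.1 in KO SSt. It rose with CMS there (0.30, adjusted p = 0.00653) and did not pass with FBS (0.06, adjusted p = 0.538). It fell in WT, with 41.4, 43.3 and 39.7 FPKM in FBS and 42.3, 44.8 and 43.6 in CMS, against 61.3, 58.9 and 58.3 in SSt (log2 fold change -0.56, SE 0.04, adjusted p = 1.11e-06 with FBS, and log2 fold change -0.47, SE 0.04, adjusted p = 3.63e-06 with CMS). KO SSt already lay below WT SSt (-0.61, adjusted p = 1.46e-06). Within the pair, Atp6v0e2 took 29.6% ± 5.84 in KO FBS and 26.1% ± 2.25 in KO CMS, against 13.8% ± 1.88 in KO SSt. WT gave 28.9% ± 2.17 with FBS and 27.3% ± 1.10 with CMS, against 9.01% ± 0.983 in SSt.

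**Figure D5:**
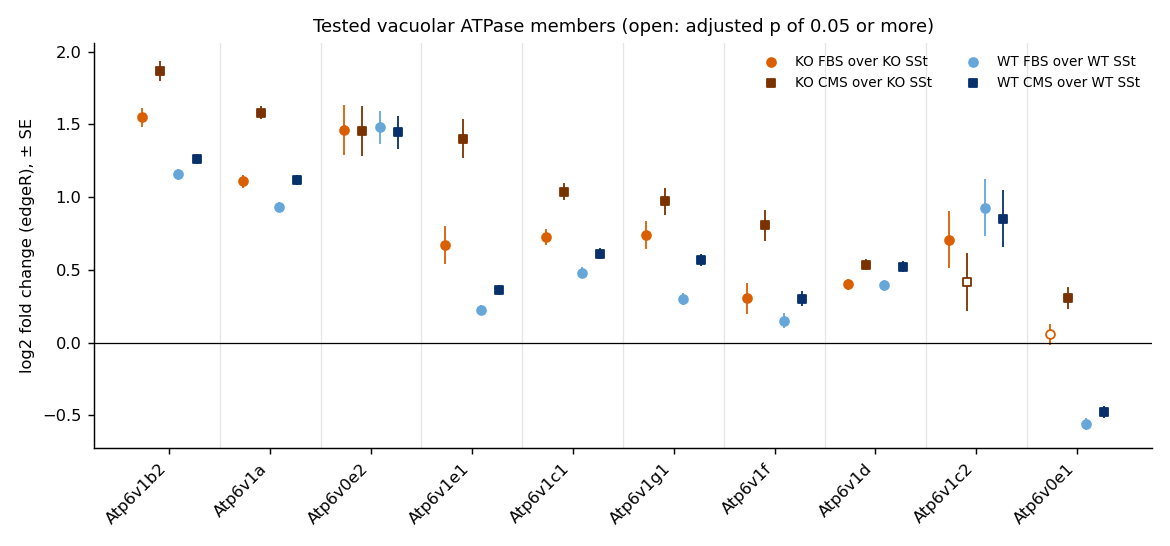
Log2 fold change over SSt from edgeR (y axis, ± SE) of the 10 tested vacuolar ATPase members for KO FBS, KO CMS, WT FBS and WT CMS (filled points pass an adjusted p of 0.05), ordered by the KO CMS value. KO CMS reaches 1.87 for Atp6v1b2, and Atp6v0e1 is the only member below 0, at -0.56 and -0.47 in WT.

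Many genes of this pump carry a CACGTG core near their start, where the lysosomal regulator TFEB is known to bind in human cells. The 11 vacuolar ATPase members with a RefSeq window include the untested Atp6v1b1, Atp6v1e2, Atp6v1g2 and Atp6v1g3. Of the 11 windows 1 holds CACGTG (9.09%, against 6.42% of all windows), and it is that of Atp6v0e1, the member that fell in WT. The window of Atp6v1a holds none of the 3 motifs. They lie at chr10:17007107-17007406 (minus strand) and chr11:70067252-70067551 (plus strand).
Atp6v0e1: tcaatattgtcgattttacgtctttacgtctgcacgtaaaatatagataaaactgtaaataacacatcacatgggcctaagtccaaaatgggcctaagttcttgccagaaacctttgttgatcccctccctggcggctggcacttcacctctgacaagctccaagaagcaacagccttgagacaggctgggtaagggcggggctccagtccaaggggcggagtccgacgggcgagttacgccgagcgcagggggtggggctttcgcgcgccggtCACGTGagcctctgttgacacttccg
Atp6v1a: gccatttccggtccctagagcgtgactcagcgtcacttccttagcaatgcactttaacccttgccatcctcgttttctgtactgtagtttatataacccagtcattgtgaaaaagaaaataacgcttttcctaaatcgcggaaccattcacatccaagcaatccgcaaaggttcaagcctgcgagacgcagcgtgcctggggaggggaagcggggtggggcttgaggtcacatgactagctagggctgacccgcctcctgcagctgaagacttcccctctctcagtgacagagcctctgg
Capitals mark the match, and no match says only that these letters are not in this window. Atp6v1b2, Atp6v1c1 and Atp6v0e2, which rose in each comparison with SSt, had no window and were not searched. A part of TFEB in these changes was not tested.

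Between genotypes in SSt, 7 of the 10 were lower in KO and 0 higher (background 23.2% and 24.2%). In the CMS response 7 were higher in KO than in WT and 0 lower (background 21.6% and 23.2%), and in the FBS response 6 and 0 (background 18.5% and 17.2%). Treated levels parted less. In KO against WT 0 were higher and 2 lower with FBS (background 13.5% and 12.3%). With CMS 3 were higher and 0 lower (background 18.7% and 21%). Leaving out 1 library gave 1 to 3 lower with FBS and 2 to 3 higher with CMS. The response differences thus hold the lower SSt levels of KO. Of the 10 macrophage markers, whose sums stand above, 9 rose and none fell in KO FBS, 7 and 2 in KO CMS, 6 and 2 in WT FBS, and 6 and 4 in WT CMS, and 9 were lower in KO SSt than in WT SSt. Macrophages are rich in this pump, and the part of these markers in the vacuolar ATPase result was not tested.

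Of the other members, Ppa1, the pyrophosphatase of the cytosol, fell in all treated groups (-0.48 and -0.61 in KO, -0.49 and -0.52 in WT). Its mitochondrial relative Ppa2 stood at -0.15 with FBS and -0.01 with CMS in KO. WT cells held 6.85, 6.80 and 6.31 FPKM in FBS and 7.36, 6.51 and 5.73 in CMS, against 4.19, 4.67 and 5.78 in SSt. Those values passed (0.41 and 0.40) but not without WT SSt replicate 1 (0.30 and 0.29) or 2 (0.37 and 0.35), without WT FBS replicate 1 or 2 (0.39 each), or without WT CMS replicate 1 (0.30) or 2 (0.40). Lhpp, a phosphatase of phosphohistidine and pyrophosphate, had 11.7, 13.2 and 14.2 FPKM in KO FBS and 10.5, 12 and 11.1 in KO CMS, against 7.78, 7.96 and 8.92 in KO SSt. It rose in each treated group (0.72, 0.56, and in WT 0.81 and 0.69).

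CMS and FBS gave near the same levels of most members. In KO 7 of 100 nuclear members were higher with CMS than with FBS and 1 lower (background 6.73% higher and 8.09% lower), 6 of the higher ones of the vacuolar ATPase and the other Cox17, and the lower one the copy LOC100911417. In WT 3 were higher and 0 lower (background 3.91% and 5.03%), all 3 of the vacuolar ATPase (Atp6v1a, Atp6v1g1 and Atp6v1e1). The Atp6v1e1 value of 0.14 missed the threshold without any 1 of WT CMS replicates 1 to 3 and WT FBS replicates 1 and 3 (0.12 to 0.15), and the KO call of Atp6v1b2 was lost without KO CMS replicate 2 (0.27) or 3 (0.31). The KO count was 14 in all without KO FBS replicate 1, 4 without KO CMS replicate 2 or 3, and 5 without KO FBS replicate 2 or 3, and the WT count was 5 without WT CMS replicate 1. Among mitochondrial members Mt-nd3 and Mt-nd4l were lower with CMS in KO (-0.52 and -0.25), and Mt-co3 and Mt-atp8 were higher with CMS in WT (0.13 and 0.27). The Mt-nd4l call was lost without any 1 of the 6 KO FBS and KO CMS libraries (-0.29 to -0.22), and the Mt-co3 call without WT CMS replicate 3 (0.11). The mitochondrial count was 1 in KO without KO CMS replicate 3 or KO FBS replicate 2, and 1 in WT without WT CMS replicate 3.

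Nuclear subunits of complexes I to V differed between genotypes in both directions. In KO against WT, 6 were higher and 12 lower in SSt, 10 higher and 3 lower with FBS, and 11 higher and 7 lower with CMS, of 83 tested. The background was 24.2% higher and 23.2% lower in SSt, 13.5% and 12.3% with FBS, and 18.7% and 21% with CMS, a larger share than among the subunits in each case. Under total-count scaling the splits in SSt and with CMS turned, to 15 higher and 4 lower and to 3 and 14, while that with FBS was 8 and 4. The response differences split 10 higher and 6 lower with FBS and 15 higher and 7 lower with CMS, and 3 and 9, and 5 and 16, under that scaling. Over all genes 18.5% were higher and 17.2% lower in the FBS response difference, and 21.6% and 23.2% in that of CMS. The nuclear count in KO against WT with CMS, 23 in all, was 12 without KO CMS replicate 3 and 14 without WT CMS replicate 1.

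Genes that serve the pathway without being members were counted from lists chosen by function. Over all genes tested, 29.5% were lower and 30.3% higher in KO FBS, and 30.7% and 30.8% in KO CMS. In WT these shares were 32.7% and 33.7% with FBS and 32.3% and 34.6% with CMS. Of 17 tested genes of the citric acid cycle and its entry, 11 were lower and 3 higher in KO FBS, 9 and 3 in KO CMS, 11 and 4 in WT FBS, and 10 and 4 in WT CMS. Of 20 electron and adenylate carriers, 9 were lower and 2 higher in KO FBS, 9 and 5 in KO CMS, 12 and 5 in WT FBS, and 10 and 5 in WT CMS. Cycs, cytochrome c, the carrier between complexes III and IV, averaged 49.5 FPKM in KO FBS and 46.8 in KO CMS, against 98.6 in KO SSt, and fell in each comparison (-0.94, -0.97, -0.99 and -0.77). The counts of assembly factors lay near or under the shares of all genes in both directions. Of 41 assembly factors, 13 were lower and 3 higher in KO FBS and 11 and 6 in KO CMS. In WT 12 and 9 of them were lower and higher with FBS, and 10 and 12 with CMS. Ndufaf7, a methyltransferase that acts on complex I, stood out among them with log2 fold changes of 1.60 and 1.41 in KO and 2.15 and 2.20 in WT, and was named after its values were seen. Of the regulators of mitochondrial gene expression and biogenesis, 10 were lower and 2 higher of 17 in KO FBS and 8 and 4 in KO CMS, and 8 were lower and 5 higher of 19 in WT FBS and in WT CMS. The coactivators Ppargc1a and Ppargc1b, low throughout, passed the filter in WT alone. Their values there went opposite ways (-2.39 and -2.91 for Ppargc1a, 3.10 and 2.82 for Ppargc1b). A gene this low can pass the filter through the group where it is high, so these sizes carry little weight.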

How the data were processed

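The authors deposited 1 table for each genotype, with a whole-number read count, not normalised, and an FPKM for every gene and library, the FPKM being the authors' scaling of the count by transcript length and library total. The aligner for these libraries is not given in the sources used here. The submitters' processing notes list Bowtie 0.12.2 and mm10, which is a mouse assembly, but identifiers in both tables are of rat genes, so positions from them were not printed.

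Members were taken by the KEGG column and split by chromosome. Members and gene lists were chosen with earlier results of these data known. Counts were tested with edgeR 4.0.16 (TMM scaling, quasi-likelihood F test) on genes that reached 1 FPKM in 3 or more libraries of the fit. A fit held the 9 libraries of a genotype for treatments, or all 18 for genotypes and for differences of responses. P-values were adjusted over all genes tested (Benjamini-Hochberg), the threshold was 0.05, and SEs were derived from the F statistic. Named members were the mitochondrial ones, the most abundant of each role, the called member with the highest and the one with the lowest fold change of each role in each comparison with SSt, those called at a 2-fold change, isoform pairs and untested members, of which not every one had to be named. Near-identical copies and genes of other lists fall outside that rule and were named after their values were seen. Alternatives were DESeq2 1.42.0, limma 3.58.1, other scalings and filters, a fold limit of 2, a replicate block, fits of the compared groups alone, and each library left out in turn. Counts split by role were added to these after the data were seen. In simulated data, with the spread fitted to these libraries, the test recovered most changes seeded at the largest fold. All seeded changes were larger than many of those called here, so calls of that smaller size were not covered. Promoter windows came from RefSeq (GRCr8). Software was R 4.3.3 and Python 3.11.15 with numpy 2.4.6, pandas 2.3.3 and, for figures, matplotlib 3.10.9.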

Additional observations from a re-analysis of the deposited data

Results flagged for a closer look

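The response of KO-MSCs to FBS, minus that of WT-MSCs, differed from 0 in the interaction test of edgeR for the mitochondrial members Mt-atp6 (-0.30), Mt-co1 (0.17), Mt-co2 (-0.23), Mt-co3 (-0.17), Mt-cyb (-0.20) and Mt-nd3 (-0.39), as log2 differences. The vacuolar ATPase members with such a difference were Atp6v0e1 (0.63), Atp6v1a (0.19), Atp6v1b2 (0.40), Atp6v1c1 (0.26), Atp6v1e1 (0.46) and Atp6v1g1 (0.45). Of the other named members they were Cox17 (0.47), Ndufa12 (-0.31), Sdhc (-0.18), Uqcrh (0.38), Cox4i2 (2.22), Cox7a2l (0.20), Cox8a (0.30), Atp5mc2 (-0.31) and Ppa2 (-0.55). Numbering libraries by replicate, the call was lost for Cox17 without any 1 of KO FBS 1, WT FBS 1 and WT SSt 2 (0.35 to 0.44), Ndufa12 without any 1 of KO SSt 1 or 2 or 3, WT FBS 2 or 3 and WT SSt 1 or 2 or 3 (-0.33 to -0.30) and Sdhc without any 1 of KO FBS 1, KO SSt 3, WT FBS 2 and WT SSt 1 or 3 (-0.17 to -0.13). The same held for Cox7a2l without any 1 of KO FBS 1 or 2, KO SSt 2 or 3, WT FBS 1 or 3 and WT SSt 2 (0.16 to 0.20), Mt-atp6 without any 1 of KO FBS 3, KO SSt 3, WT FBS 3 and WT SSt 1 (-0.28 to -0.22) and Mt-co1 without WT FBS 1 (0.14). Calls were also lost for Mt-co2 without any 1 of KO FBS 1 or 3, KO SSt 1 or 2 or 3, WT FBS 1 or 2 or 3 and WT SSt 1 or 3 (-0.25 to -0.17), Mt-nd3 without any 1 of KO FBS 1, KO SSt 3, WT FBS 3 and WT SSt 3 (-0.37 to -0.32) and Ppa2 without any 1 of KO FBS 1 or 3, KO SSt 1 or 3, WT FBS 1 or 2 and WT SSt 1 or 2 (-0.55 to -0.44). It was lost for Atp6v1e1 without WT FBS 1 (0.44). Scaling by total counts alone ended the call for Cox17 (0.36), Cox7a2l (0.10), Cox8a (0.20), Mt-co1 (0.06), Atp6v1a (0.08) and Atp6v1c1 (0.15).

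The response of KO-MSCs to CMS, minus that of WT-MSCs, differed from 0 in the interaction test of edgeR for the mitochondrial members Mt-atp6 (-0.43), Mt-atp8 (-0.81), Mt-co2 (-0.54), Mt-co3 (-0.42), Mt-cyb (-0.17), Mt-nd1 (-0.29), Mt-nd2 (-0.29), Mt-nd3 (-1.0) and Mt-nd4l (-0.37), as log2 differences. The vacuolar ATPase members with such a difference were Atp6v0e1 (0.78), Atp6v1a (0.47), Atp6v1b2 (0.61), Atp6v1c1 (0.43), Atp6v1e1 (1.05) and Atp6v1g1 (0.41). Of the other named members they were Cox15 (-0.23), Cox17 (1.12), Ndufa12 (-0.48), Ndufa4l2 (0.88), Cyc1 (0.18), Uqcrh (0.38), Cox4i1 (0.14), Cox4i2 (2.90), Cox7a2l (0.22), Cox8a (0.20), Atp5f1d (0.18) and Atp5mc2 (-0.19). Numbering libraries by replicate, the call was lost for Cox15 without any 1 of KO CMS 1 or 2, KO SSt 1 or 2, WT CMS 2 or 3 and WT SSt 2 or 3 (-0.23 to -0.17), Cyc1 without any 1 of KO CMS 2 or 3, KO SSt 2, WT CMS 1 or 3 and WT SSt 1 or 2 or 3 (0.14 to 0.20) and Cox4i1 without any 1 of KO CMS 1 or 2 or 3, KO SSt 1 or 2 or 3, WT CMS 1 and WT SSt 1 or 2 (0.10 to 0.15). The same held for Cox7a2l without KO SSt 2 (0.18), Cox8a without any 1 of KO CMS 2 or 3, KO SSt 2 or 3, WT CMS 1 or 3 and WT SSt 1 or 2 (0.16 to 0.21) and Atp5mc2 without any 1 of KO CMS 1 or 2 or 3, KO SSt 2 or 3, WT CMS 2 or 3 and WT SSt 1 or 2 or 3 (-0.20 to -0.16). Calls were also lost for Mt-cyb without any 1 of KO CMS 1 or 2, KO SSt 3, WT CMS 3 and WT SSt 1 (-0.16 to -0.13). Scaling by total counts alone ended the call for Cyc1 (0.04), Cox4i1 (-0.0065), Cox7a2l (0.08), Cox8a (0.06) and Atp5f1d (0.04).

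Rows of mitochondrial ribosomal RNA are not among the 13 members, though the shares of the mitochondrial chromosome include them. They took 0.0283% of counts on average in KO FBS and 0.0308% in KO CMS, against 0.0156% in KO SSt. In WT they took 0.0370% with FBS and 0.0324% with CMS, against 0.0239% in SSt. All treated libraries lay above all SSt libraries of their genotype.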

How the results depend on the processing

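Among the counts of members past the threshold and the ratios of shares, 343 values under alternatives stayed within the limits set for them and 59 did not. A fold limit of 2 left no mitochondrial member in any comparison, that is 0 in each. It left 4 nuclear members in KO FBS, 6 in KO CMS, 3 in WT FBS and 4 in WT CMS against SSt, and 0 for CMS against FBS in either genotype. It left 1 in the FBS and 3 in the CMS response difference, and 1 in SSt, 2 with FBS and 2 with CMS for KO against WT. For CMS against FBS in KO, a fit of the groups compared alone gave 5 nuclear members in place of 8. Mitochondrial members there, 2 in the chosen setting, were 6 with DESeq2, 4 with total counts, and 1 with RLE size factors, no filter or the groups alone. In WT DESeq2 called 6 nuclear members in place of 3 and limma with a pseudocount of 0.1 or 1 called 1 mitochondrial member in place of 2.

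For KO against WT, mitochondrial members in SSt were 8 in place of 5 with limma and with total counts. With FBS they were 3 with DESeq2, 2 with an FPKM of at least 5, limma at a pseudocount of 1 or total counts, and 1 with limma at 0.1 or the groups alone, in place of 0. The nuclear count with FBS was 5 in the groups alone, in place of 16. Shares taken from FPKM gave ratios over SSt of 0.940 in KO CMS, 1.27 in WT FBS and 1.295 in WT CMS. The CMS response difference of Cox4i1 turned to -0.0036 with limma and -0.0065 with total counts, where edgeR gave 0.14.

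Leaving out 1 library at a time gave 4 to 14 nuclear and 1 to 3 mitochondrial members for CMS against FBS in KO, and 2 to 5 and 1 to 2 in WT. It gave 3 to 6 mitochondrial members in the FBS response difference, 0 to 2 for KO against WT with FBS, and 12 to 20 nuclear members for KO against WT with CMS. Deviations of libraries with the same number correlated weakly (-0.14 to 0.15 in KO and -0.06 to 0.08 in WT). Libraries with different numbers gave -0.20 to 0.25 in KO and -0.12 to 0.10 in WT. With 3 libraries a group this cannot tell if a shared number means a shared rat, culture or batch. The replicate block moved the mitochondrial count for CMS against FBS in KO to 1 and kept every other count within 1.5 times. The causes of these changes were not tested. With 3 libraries a group and 56.08 to 71.85 M counts each, precision is set by the spread between libraries more than by depth, except for members under 1 FPKM.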
